A study of Rattus norvegicus with 4 samples.

Results

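The colony stimulating factors are secreted proteins that keep macrophages and granulocytes alive and direct their growth and maturation. The 8 genes described here encode 4 of these ligands and 4 receptor chains, and they were chosen by name: a gene entered when a probe's accession matched its symbol in the RefSeq gene table for rat. All 8 had a probe, 9 probes in all, out of 16581 named genes and 39506 named genes and unnamed transcripts on the array.

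The cells were NR8383, a continuous line of rat alveolar macrophages grown from a lung lavage, in medium with 15% serum and after 20 passages. All arrays came from 1 group, cells given the carbon black Printex 90, which consists of carbon nanoparticle aggregates, for 4 h at 0.9 cm²/cm² as the labels give the dose. The group had 4 biological replicates, each on its own 1-colour Agilent array. Control cells without carbon black are not analysed here. The values below are therefore levels in exposed cells and their spread between replicates, and an effect of the particles on them cannot be measured. An established line in culture lacks the epithelium that surrounds alveolar macrophages in the lung.

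M-CSF (gene Csf1) and interleukin 34 (Il34) both act through the receptor tyrosine kinase CSF1R, on which most tissue macrophages depend. GM-CSF (Csf2) binds a receptor made of a ligand-specific alpha chain (Csf2ra) and a beta chain (Csf2rb) that interleukins 3 and 5 also use, and in the lung it comes largely from the epithelium and is required for alveolar macrophages to mature and clear surfactant. G-CSF (Csf3) acts through CSF3R, chiefly on neutrophils and their precursors.

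Outside the controls an array carried 45598 probes in 58717 spots, and between 37.5% and 40.9% of the probes were marked by the scanner software as well above background, the mark called detected here. The lowest processed intensity with that mark was 22.3 on replicate 1 and 10.8 to 12.1 on the other 3, and a gene without the mark is given as not detected, with no level. Replicate 1 stood apart in its negative controls: the 99th percentile of its 308 negative control spots was 27.1, against 4.95 to 7.40 on the other arrays. The median local background did not stand apart, at 29 on replicate 1 and 30 on each of the others. No spot was saturated. Of 12 macrophage markers, 10 were detected on all 4 arrays, among them Cd68, Ptprc and Spi1, and Adgre1 and Marco on none. Of 40 markers of 6 other cell types with a probe, 9 were detected throughout, 2 in part of the arrays and 29 nowhere. Detected throughout were Camp of the granulocyte list, Cd3d, Lck, Nkg7 and Gzmb of the T and NK cell list and Pax5 of the B cell list. Dcn of the fibroblast list and Pecam1 and Vwf of the endothelial list make up the rest of the 9.

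Promoter sequence from RefSeq, build GRCr8, was held for 4 of the 8 genes: Csf2, Csf1r, Csf2ra and Csf3r. It is shown because 2 of these genes were detected and 2 were not, while the letters of the PU.1 core occur before all 4. PU.1, the product of Spi1, is the transcription factor that macrophage and granulocyte precursors need. The windows below hold 30 bases around the core GAGGAA, which is in capitals and reads as TTCCTC where it lies on the opposite strand. They are chr14:118141-118170 on the minus strand for Csf2ra, chr5:143583048-143583077 on the plus strand for Csf3r and chr10:38889733-38889762 on the minus strand for Csf2.
Csf2ra: caacccaaagatGAGGAAgtgggagcaagg
Csf3r: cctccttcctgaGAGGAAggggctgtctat
Csf2: accattaatcatTTCCTCtaactgtgtata

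GAGGAA was searched on both strands in the 250 bases before each annotated start, and 23.3% of 33469 RefSeq promoters hold it. The match began 41 bases before the start of Csf2ra, 160 before that of Csf3r and 77 before that of Csf2, and Csf1r had 2 matches, from 229 and from 95 bases before its start. The starts are those of 1 transcript a gene. For Csf2ra, Csf1r and Csf3r, 250, 227 and 94 of the bases searched lie within the gene as annotated over all its transcripts, and the records of Csf2 and Csf1r start at ATG. A match is a description of letters and not evidence of binding.

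The Csf2 promoter is also shown at greater length, because it held more of the motifs searched than the other 3 and Csf2 was not detected. The stretch is chr10:38889724-38889923 on the minus strand, and the capitals mark 4 motifs. From left to right they are part of the CK-1 element of cytokine promoters, a core bound by RUNX factors, the PU.1 core on the opposite strand and a TATA box.
Csf2: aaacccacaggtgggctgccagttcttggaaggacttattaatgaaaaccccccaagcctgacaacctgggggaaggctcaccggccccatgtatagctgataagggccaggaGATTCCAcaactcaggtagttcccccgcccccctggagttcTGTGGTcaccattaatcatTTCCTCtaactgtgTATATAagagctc

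The CK-1 part was searched as GATTCCA on both strands, and 3.16% of the 250-base promoters hold it. The RUNX core was likewise searched as TGTGGT and is held by 14.5% of them. The TATA box was likewise searched as TATAAA or TATATA and is held by 16.1%. Of the 4 genes with a promoter, Csf2 alone held these 3 motifs. The AP-1 letters TGANTCA, held by 6.34% of promoters, were in none of the 4.

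Of the 4 ligands, only Csf3 was detected on all 4 arrays, and of the 4 receptor chains, Csf1r, Csf2ra and Csf2rb were. Csf1, Il34, Csf2 and Csf3r were detected on no array. That is 4 of 8 genes on all arrays, against 48.0% of named genes, and 4 of 8 on none, against 44.0% of named genes, so the share detected was near that of the array as a whole. By this mark no ligand gene was detected with its receptor gene. Csf1r was detected without Csf1 or Il34, Csf2ra and Csf2rb without Csf2, and Csf3 without Csf3r. How often other gene pairs on the array differ in this way was not counted. With the software's looser mark for positive and significant signal, Il34 also passed on all 4 arrays, together with Csf1r.

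**Figure D1:**
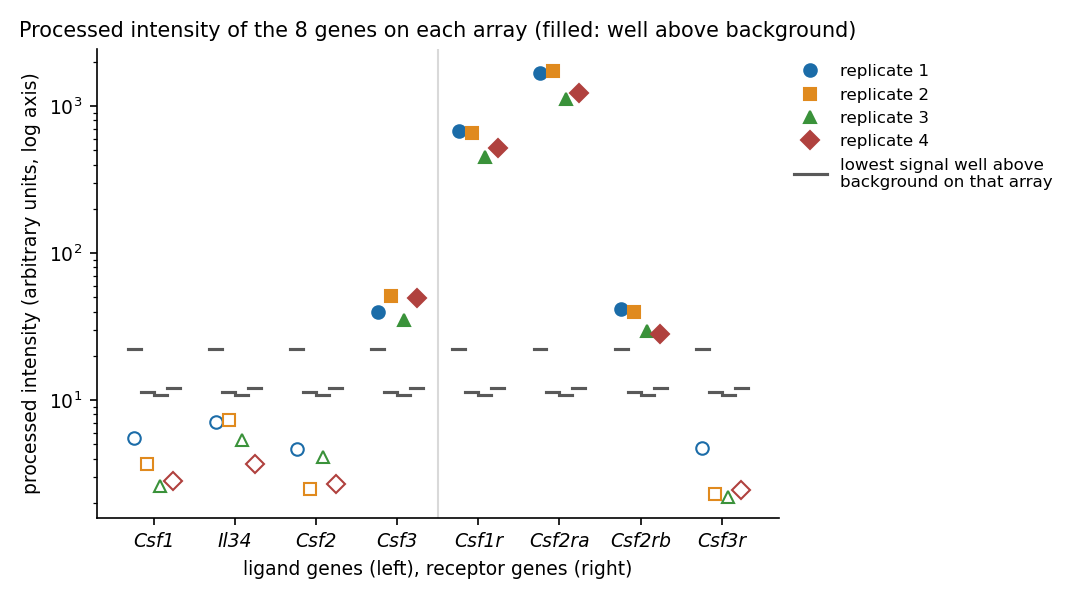
Processed intensity (log axis, arbitrary units) of the 8 genes on the 4 arrays, filled where well above background, with a grey dash at the lowest signal so marked on that array. Csf3, Csf1r, Csf2ra and Csf2rb lie above the dash on every array, and Csf1, Il34, Csf2 and Csf3r lie below it on every array.

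Csf3, the gene of G-CSF, had processed intensities of 40.0, 50.9, 35.1 and 49.4 on replicates 1 to 4. All were above the 99th percentile of the negative controls on their array and 1.79 to 4.50 times the lowest detected signal. The software's own error for the spot was 11.3% to 16.3% of its signal. Scaled as log2 intensity minus the array's 75th percentile over probes, the scale of every level below, Csf3 stood at -1.45, -0.88, -0.86 and -0.37, a mean of -0.89 ± 0.44 (SD, n = 4). It was lowest on replicate 1 and highest on replicate 4, a difference of 1.08 log2 units or 2.11-fold. Before scaling the lowest and highest arrays were replicates 3 and 2, and they differed 1.45-fold, so the order and the size of the difference depend on the scaling.

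Csf1 and Csf2 gave signals near the floor. For Csf1, the gene of M-CSF, the probe for a predicted transcript read 5.55, 3.68, 2.62 and 2.83 on replicates 1 to 4. Its probe for the curated transcript read 4.87, 2.39, 2.31 and 2.51. Neither Csf1 probe was detected on any array. Csf2, the gene of GM-CSF, read 4.63, 2.48, 4.09 and 2.69, at most 0.377 times the lowest detected signal of the same array. With the looser mark of the software, positive and significant against local background, Csf1 and Csf2 each passed on 1 array, replicate 2 for Csf1 and replicate 3 for Csf2.

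Il34 had 1 probe spotted 10 times on each array, which shows how the software's marks fall near the floor. The mean over spots, taken on the log scale, was 7.16, 7.36, 5.35 and 3.68 on replicates 1 to 4. Of 40 spots, 1 was well above background, with 12.7 on replicate 2, and 32 carried the looser mark. On replicate 4 the spots ran from 2.40 to 15.1, the highest of them marked by the software as an outlier among its repeats and left out of the mean. The SD between spots of 1 array, that outlier included, was 0.47 to 0.82 log2 units. The unmarked spots reached above the lowest detected signal on replicates 2 and 4, so that signal is no ceiling for spots without the mark. Il34 passed the looser mark on all 4 arrays. Its mean exceeded the negative controls' 99th percentile only on replicate 3, at 5.35 against 4.95. On replicate 2 the mean of 7.36 lay just below that percentile, 7.40, while the median spot, at 8.68, lay above it. Il34 therefore lay between the detected genes and those at the floor.

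**Figure D2:**
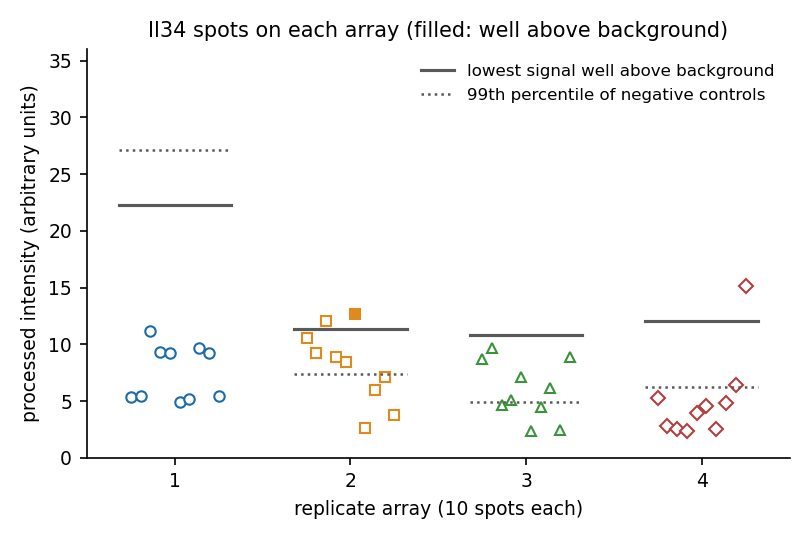
Processed intensity (arbitrary units) of the 10 Il34 spots on each array, filled where well above background, with the array's lowest detected signal (solid) and its 99th percentile of negative controls (dotted). Of the 40 spots only 1, on replicate 2, is filled.

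Csf1r, the tyrosine kinase receptor for M-CSF and interleukin 34, had processed intensities of 675, 657, 449.6 and 516 on replicates 1 to 4. Its levels were 2.63, 2.81, 2.82 and 3.01, a mean of 2.82 ± 0.16 (SD, n = 4). The signal was 30.2 to 58.1 times the lowest detected signal, and the levels of replicates 2 and 3 were nearly equal.

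Csf2ra, the chain that gives the GM-CSF receptor its specificity, had intensities of 1691, 1747, 1127 and 1219.7. Its levels were 3.95, 4.22, 4.15 and 4.26, a mean of 4.14 ± 0.14 (SD, n = 4). Replicate 1 lay lowest and the other 3 arrays lay within 0.11 log2 units of each other.

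Csf2rb, the signalling beta chain that the GM-CSF receptor shares with those for interleukins 3 and 5, read 41.8, 39.6, 29.5 and 28.2. Its levels were -1.38, -1.24, -1.11 and -1.18, a mean of -1.23 ± 0.12 (SD, n = 4). On replicate 1 it was 1.88 times the lowest detected signal and on the other arrays 2.33 to 3.50 times. The level of a gene reflects how its probe binds as well as its transcript, so the alpha and beta chains are not set against each other here.

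Csf3r, the G-CSF receptor, read 4.70, 2.29, 2.21 and 2.46, 0.202 to 0.211 times the lowest detected signal. It was the 1 gene of the 8 that did not carry the looser mark on any array. Of 9 granulocyte and mast cell markers with a probe, Camp was detected on all arrays, S100a8 on 2, and the other 7, Cxcr2, Elane and S100a9 among them, on none.

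Whether the detected genes varied more between replicates than others of like level was tested. All 14927 genes and unnamed transcripts detected on at least 2 arrays entered, and all of them are called tested genes here. The 4 detected genes are named ones, and shares among named tested genes alone were not counted. The test, limma's fit of each gene's variance against a prior that follows the mean level, called 69 genes (0.462%) at an adjusted p under 0.05. That count is not stable: other settings gave 0 to 354, and it was 27 without replicate 2, 43 without replicate 4 and 164 without replicate 3. Of the 4 colony stimulating factor and receptor genes tested it called 0, and 0 had an unadjusted p under 0.05, which 5.06% of all tested genes had. Csf3 had the widest spread of the 4, an SD of 0.44 against 0.25 fitted for its level (adjusted p = 0.987, limma). Csf1r had 0.16 against 0.14 and Csf2ra 0.14 against 0.13 (adjusted p = 0.987 for both, limma). Csf2rb varied less than fitted, with an SD of 0.12 against 0.28 (adjusted p = 0.992, limma). With 4 arrays a p above the threshold does not show that spreads are alike.

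**Figure D3:**
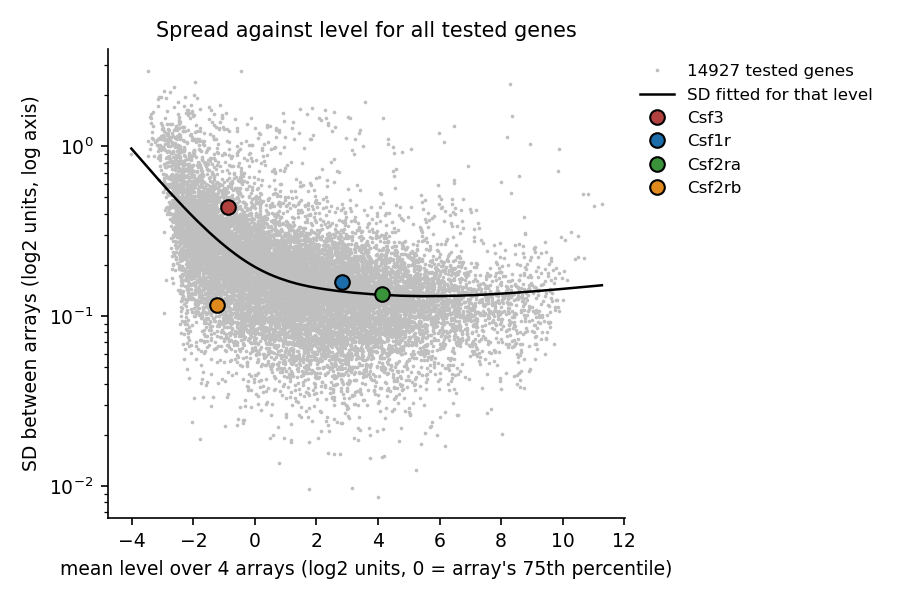
SD between the 4 arrays (log2 units, log axis) against mean level for 14927 tested genes (grey) with the SD fitted for each level (line). Csf3 lies above the line at 0.44, Csf1r and Csf2ra close to it, and Csf2rb below it at 0.12.

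All 4 detected genes had their lowest level on replicate 1, where 39.4% of tested genes had theirs, and Csf3, Csf1r and Csf2ra their highest on replicate 4, against 20.3%. The order of Csf3 and Csf1r, lowest on replicate 1 and highest on replicate 4, was the same under all 4 scalings tried, while with normexp background correction Csf2ra was lowest on replicate 3 and highest on replicate 2. Of all tested genes 11.7% were lowest on replicate 1 and highest on replicate 4 in the scaling used here. Before scaling the order was another: Csf1r and Csf2rb were highest on replicate 1, at 675 and 41.8, and Csf3 and Csf2ra on replicate 2. Replicate 1 is also the array with the highest negative controls, and its part in the order after scaling was not tested. Without replicate 1 the SD of Csf3 was 0.29, and without replicate 4 it was 0.33.

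**Figure D4:**
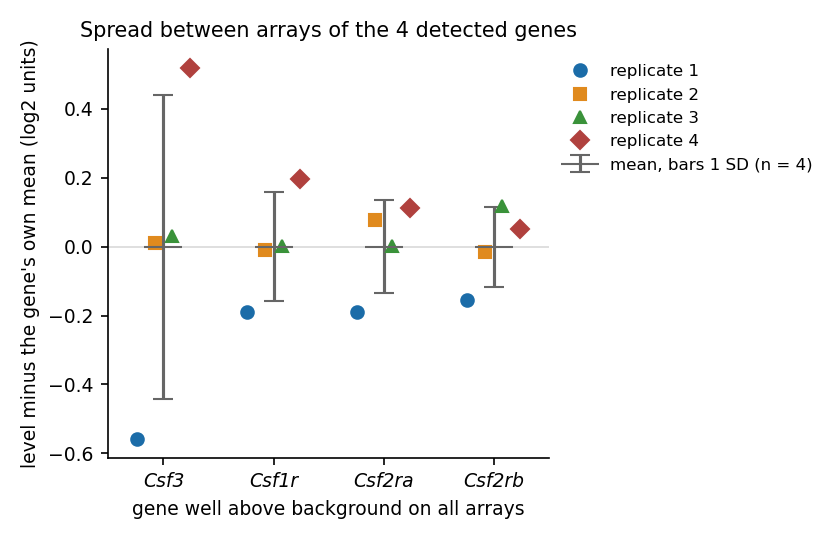
Level of each detected gene on each array minus its own mean (log2 units), with bars of 1 SD (n = 4). Replicate 1 is the lowest point of all 4 genes, and the points of Csf3 span 1.08 log2 units, against 0.27 to 0.39 for the receptor genes.

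The genes around the receptors were read from 8 lists of 85 genes, of which 79 had a probe, 61 were detected throughout, 1 on 3 arrays and 17 nowhere. Of 62 that were tested 0 passed limma's variance test, against 0.462% of all tested genes, and 6 had an unadjusted p under 0.05, against 5.06%. Both shares of all tested genes include unnamed transcripts, while every listed gene with a probe is a named gene. The detected counts of the lists below stand beside the 48.0% of named genes detected on all arrays. The median SD of tested genes lay between 0.093 and 0.22 in the 8 lists, against 0.16 over all tested genes.

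Among the genes that share the beta chain, only the interleukin 3 receptor alpha chain was detected. Its gene, Il3ra, stood at 3.41, 3.69, 3.52 and 3.58 in the order of the replicates. The ligand genes Il3 and Il5 and the interleukin 5 receptor alpha chain Il5ra were detected on no array. As with GM-CSF, a receptor chain was thus detected without its ligand. Of 4 other partners, Trem2, a lipid-sensing receptor that signals through the adaptor TYROBP, had a level of 9.48 ± 0.10 (SD, n = 4) and Tyrobp 9.18 ± 0.085. Ptprz1 and Sdc1, whose products also bind interleukin 34, were detected on no array.

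Of the signal transduction genes, 16 of 18 were detected on all arrays, against 48.0% of named genes on the array. The kinases JAK1 and JAK2 bind cytokine receptor chains, JAK2 that of GM-CSF, and their genes had levels of 5.57 ± 0.074 and 1.06 ± 0.13 (SD, n = 4). Another Jak1 probe, also detected on all arrays, stood lower, at 2.18, 1.92, 1.98 and 2.09 in the order of the replicates. Stat3, the transcription factor gene most tied to G-CSF, stood at 1.40 ± 0.23. Stat5a and Stat5b, the factors most tied to GM-CSF and named after their values were seen, stood at 4.68 ± 0.17 and 1.28 ± 0.32. Pik3cd and Src were detected on no array. Of 10 negative regulators with a probe, 8 were detected on all arrays. Cblb, a ubiquitin ligase gene, stood at 1.79 ± 0.15 and Cish, a STAT5-induced inhibitor, at -0.18 ± 0.51. Cish was highest on replicate 1, at 0.54, and between -0.65 and -0.30 on the others. Socs1 and Socs2 were detected on no array, and Cbl and Sh2b3 were not matched to a probe.

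Of 13 transcription factor genes with a probe, 9 were detected on all arrays. Spi1, the gene of PU.1, ranged from 3.78 on replicate 1 to 3.92 on replicate 2, a mean of 3.84 ± 0.063 (SD, n = 4). Pparg, which GM-CSF induces in alveolar macrophages and which was named after its values were seen, stood at 6.20 ± 0.11. Irf8, Cebpa and Gfi1 were detected on no array, Maf on 3, and Bhlhe41 was not matched to a probe. Among listed genes tied to GM-CSF in alveolar macrophages, 8 of 9 with a probe were detected on all arrays. They include the cholesterol exporter genes Abcg1 (8.43 ± 0.044) and Abca1 (-0.0060 ± 0.21) and the fatty acid carrier gene Fabp4 (2.80 ± 0.23). Car4 was detected on no array, and Chil3, Itgax and Ear2 were not matched to a probe. The 8 genes were detected on the same arrays as Csf2ra and Csf2rb, and Csf2 was not detected there. Whether any of them depends on GM-CSF in these cells was not tested.

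Of 10 STAT5 and growth targets, 8 were detected on all arrays and Bcl2 and Osm on none. Pim1, a kinase gene that STAT5 induces, stood at -1.84 ± 0.11 (SD, n = 4). Bcl2l1, the gene of the survival protein BCL-XL, stood at 0.98 on replicate 1 and at -1.28, -1.58 and -1.51 on the others (adjusted p = 0.093, limma). It was set apart by replicate 1 alone, and its other 3 probes were detected on no array. Of 11 inducers of the ligand genes, 9 were detected on all arrays. The cytokine genes Il1a, Il1b and Tnf, which induce Csf2 and Csf3 in many cells, stood at 4.27 ± 0.21, 4.13 ± 0.12 and 3.99 ± 0.22. Another Tnf probe, also detected on all arrays, stood lower, at -1.07, -0.86, -1.27 and -0.42 in the order of the replicates. Egr1 and Nfatc2 were detected on no array.

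**Figure D5:**
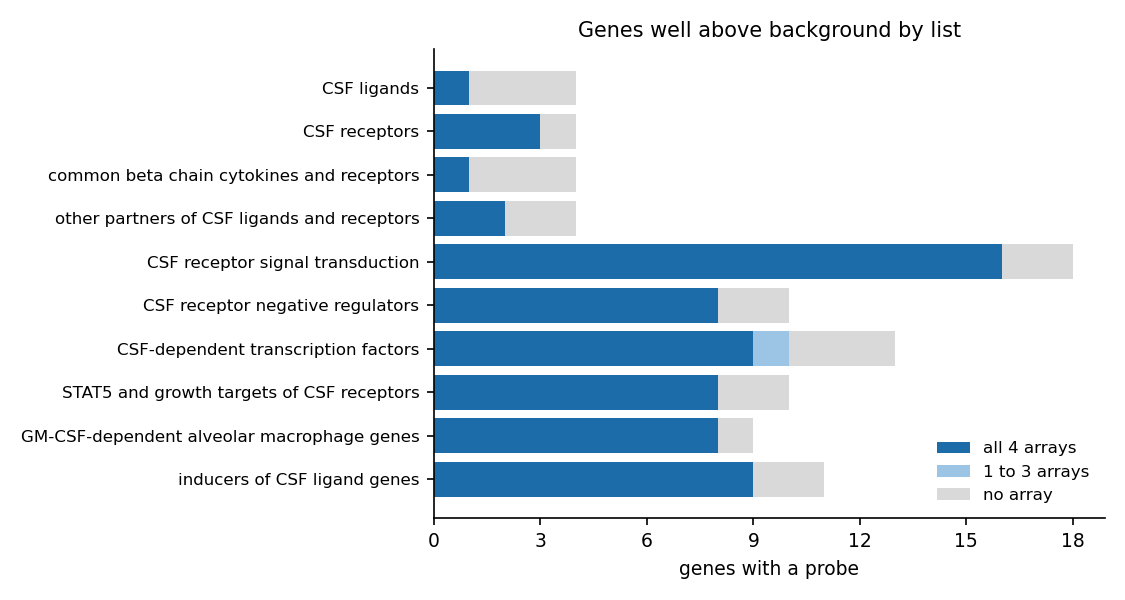
Genes with a probe in each list (horizontal axis, number), split by whether all 4 arrays, 1 to 3 of them or none showed the gene well above background. The ligands have 1 of 4 detected on all arrays, the receptors 3 of 4 and the signal transduction genes 16 of 18.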

How the data were processed

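The authors deposited linear spot intensity values from Agilent Feature Extraction 11.0.1.1 (submitters' processing notes). Per the file headers these were background-subtracted and detrended within the array and not normalized between arrays. The software's 0 or 1 marks for each spot were used as deposited by the authors. Control spots, non-uniform spots (1, 7, 0 and 6) and population outliers (565 to 690 an array) were left out, log2 intensity was averaged over a probe's spots, and each array was shifted to its 75th percentile across probes. Probes were named through RefSeq accessions, names only (21109 probes). A gene was read from its probe with the highest mean and counted as well above background where at least 50% of the spots of any of its probes were marked. Variance was tested with lmFit and squeezeVar (trend on level, one-sided F test, Benjamini-Hochberg) of limma 3.58.1 in R 4.3.3, tested on simulated data. Replicates correlated at 0.981 to 0.993 over tested genes, which are not independent replicates. The 4 arrays share 1 slide and 1 scan time, and position on the slide and replicate cannot be told apart. The number of arrays limits the precision. Members and lists were chosen with earlier results of these data known. Named genes are all members, the first 3 of each list with their level, those past the test, and those behind a count of 5 or fewer. The 9 markers of other cell types detected throughout are named as well. The values of 2 list genes, 1 of them past the gap criterion for a distant array, are not reported here, and both stay in the list counts. The files have no mean signal, so normexp used the median signal.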

Additional observations from a re-analysis of the deposited data

Results flagged for a closer look

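None of the 4 detected colony stimulating factor and receptor genes had an array far from the others by the gap criterion, in which the gap to the nearest array divided by the range exceeds Dixon's critical value. Among 63 genes checked, these 4 and the detected list genes reported here, 3 did, and chance gives about 1 in 20. For Bcl2l1 the ratio was 0.882, with 0.98 on replicate 1 against -1.28 on the next array. For the granulocyte transcription factor gene Cebpe it was 0.935, with 3.07 on replicate 2 against 2.92. For the survival gene Mcl1 it was 0.875, with 3.02 on replicate 1 against 3.31. Another Mcl1 probe, also detected on all arrays, stood at 1.07, 0.997, 1.25 and 1.34 on replicates 1 to 4, lowest on replicate 2.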

How the results depend on the processing

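Across the settings tried, 4 of the 8 genes were detected on all arrays, except with the mark for positive and significant signal, which gave 5 by adding Il34. None of the genes passed the variance test under any setting, and over 12 settings the adjusted p of Csf3 lay between 0.83 and 0.992 (limma). The number of genes called over the whole array did change, from 69 to 0 with the percentile over detected probes, 1 with quantile normalization, 236 with normexp, 354 with dim probes kept, 0 with a prior that ignores the level and 205 with a robust prior. Leaving out each replicate in turn gave 27 to 164, with 27 without replicate 2, 164 without replicate 3, 43 without replicate 4 and 89 without replicate 1. Keeping population outlier spots, a choice made after seeing the data, gave 69. The cause of these changes was not tested. Normexp lowered the SD of Csf3 to 0.22 and its range to 0.54 log2 units, from 1.08. Csf3 and Csf2rb lay 1.79 and 1.88 times above the lowest detected signal on replicate 1, so their levels there rest on little signal over background. No paired analysis was possible because there is 1 group.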

Other observations

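Some further signalling genes were chosen for naming after seeing their values, and they do not stand for their lists. The Src-family kinase gene Lyn had a level of 5.32 ± 0.083 (SD, n = 4), and the kinase gene Fes 3.63 ± 0.030. Ptpn6 and Inpp5d, phosphatase genes that limit signalling from CSF1R, stood at 8.25 ± 0.090 and 3.77 ± 0.12. The cyclin D genes Ccnd1, Ccnd2 and Ccnd3, which growth factors induce, stood at 3.71 ± 0.075, 3.67 ± 0.24 and 1.21 ± 0.19.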
